A study of Homo sapiens with 8 samples.

Results

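This report describes 38 target genes of the transcription factor p53 that lie outside the BCL2 family, in SupB15 cells treated with the compound 1035, with doxorubicin, or with both. The genes were taken by symbol from a given list, which was chosen with earlier results of these data known. Counts were found for 36 of them in all 8 libraries, among 16608 genes in all, and each of the 36 passed the filter on low counts. SPATA18 and TRIM32 were not analysed here.

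SupB15 is an established human line of Philadelphia chromosome-positive precursor B acute lymphoblastic leukemia. The combination group (1035+Doxo) received 2 µM 1035 for 36 h and then 0.1 µM doxorubicin for 10 h. The 1035 group received 2 µM 1035 for 46 h, the Doxo group 0.1 µM doxorubicin for 10 h, and the DMSO group the solvent for 46 h, with 2 libraries per group. The series title calls 1035 an inhibitor of histone deacetylases, the enzymes that remove acetyl groups from histones and other proteins. Doxorubicin, an anthracycline, locks topoisomerase II onto DNA and so leaves broken strands. The labels do not say if 1035 was still present while the combination received doxorubicin, and Doxo and DMSO differed in the length of treatment. In 1035+Doxo against 1035, and so in the interaction, doxorubicin cannot be told apart from an end of the exposure to 1035 after 36 h in place of 46 h. A value "after 1035" is that comparison and may hold both. All groups are cultures of 1 cell line, so nothing here bears on other cells.

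In undamaged cells p53 is kept scarce by MDM2, a ubiquitin ligase that is itself a p53 target. DNA breaks activate the kinases ATM and CHEK2, p53 escapes MDM2, is acetylated by p300 and CBP, and binds response elements near its targets. The best known targets outside the BCL2 family halt the cell cycle, repair DNA, adjust metabolism, signal to death receptors or AKT, and regulate RNA. A p53 response element consists of 2 adjoining half-sites of 10 bases.

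The libraries held 11760542 to 18144670 counts on the shared genes. The 2 libraries of a group differed by more than sampling noise, with a chi-square per degree of freedom of 2.17 in 1035+Doxo, 3.1 in 1035, 4.52 in Doxo and 1.77 in DMSO. All 10 precursor B cell markers, PAX5 and RAG1 among them, passed the count filter, with a summed level, in counts per library of equal size after TMM (CPM), of 2930 to 3010 CPM in 1035+Doxo, 3100 to 3120 in 1035, 3970 to 4170 in Doxo and 4070 to 4270 in DMSO. With 1035, 6 of these 10 were lower, among them IGLL1 (log2 fold change -1.80) and DNTT (-0.88), and 3 were higher, among them CD22 (0.80), against 24.8% and 24.2% of all genes, and 0 were called in either doxorubicin comparison. Of 5 T and NK cell markers only NKG7 passed the count filter (10.0 to 11.2, 9.64 to 11.8, 11.0 to 11.3 and 10.3 to 11.7 CPM in the same groups), as did 4 of 5 myeloid markers (summed 32.3 to 33.4, 32.2 to 38.2, 20.7 to 23.8 and 23.1 to 23.3 CPM), 2 of 4 stromal markers (64.6 to 67.3, 65.8 to 71.2, 26.4 to 30.3 and 25.8 to 27.5 CPM) and 1 of 3 erythroid markers (3.57 to 4.21, 3.98 to 4.17, 1.4 to 1.78 and 1.32 to 1.47 CPM). CD3D, CD14, DCN and HBB, defining markers of those cell types, were not among the tested genes. Of the markers of other cell types that passed, MPO, CSF1R, ITGAM, PDGFRB, COL1A1 and EPOR were higher and LYZ was lower with 1035, and the part of all these markers in the values below was not tested.

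The RefSeq promoters of the members were read first, since p53 acts on its targets through such elements. Promoters of 300 bases, 250 before and 50 after the start, were found for 27 of the 36 genes on GRCh38.p14 (C12orf5 under TIGAR and LINC01021 under PURPL). The search used the p53 consensus of 2 half-sites with no spacer between them, required the C and the G inside each half-site, and allowed up to 3 mismatches elsewhere. The consensus equals its own reverse complement, so both strands were covered. Such a site lay in 5 of the 27 members (18.5%) and in 288 of all 27305 promoters (1.05%). With up to 6 mismatches the shares were 51.9% and 25.1%, and the limit of 3 was set after hits had been seen. The 5 sites follow with up to 30 bases on each side, cut at the start site, on the gene's strand. In each line the first 30 bases are flank and the next 20 are the site, whose capitals match the consensus and whose lower-case bases are mismatches. In AEN both mismatches, and in DCP1B 1 of its 2, end the site and so stand just after the capitals.

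LINC01021, chr5:27472135-27472214, plus strand: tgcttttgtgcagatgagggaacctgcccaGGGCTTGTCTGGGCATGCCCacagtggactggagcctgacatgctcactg
AEN, chr15:88621276-88621339, plus strand: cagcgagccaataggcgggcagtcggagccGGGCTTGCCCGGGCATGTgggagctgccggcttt
DCP1B, chr12:2004620-2004699, minus strand: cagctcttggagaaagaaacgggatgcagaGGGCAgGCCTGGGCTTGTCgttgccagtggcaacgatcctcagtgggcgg
FDXR, chr17:74872995-74873045, minus strand: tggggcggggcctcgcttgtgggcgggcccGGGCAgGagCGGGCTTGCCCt
RPS27L, chr15:63157497-63157576, minus strand: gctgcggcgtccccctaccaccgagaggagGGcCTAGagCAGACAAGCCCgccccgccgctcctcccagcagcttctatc

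The site in LINC01021 matched the consensus at all 20 positions, which only 5 of the 27305 promoters (0.0183%) did, and began 127 bases before the start. Those of AEN (2 mismatches) and FDXR (3 mismatches) began 34 and 21 bases before it. Those of DCP1B (2 mismatches) and RPS27L (3 mismatches) began 212 and 69 bases before it. Just past the limit, with 4 mismatches, came TRIAP1, with AGGCATGCaCGGACATGaag beginning at base 29 of the transcript, and ZMAT3, with GGGCcTGCTCcGcCAAGCaC beginning 83 bases before the start. The best site of CDKN1A and that of PLK2 in this window had 5 mismatches. A match is a description of letters and was not measured as binding. No match within the window says nothing of p53 binding elsewhere in a gene.

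The members' calls with doxorubicin went in 1 direction. Their list was chosen with earlier results of these data known, so its contrast with all genes is a description. After 1035, in 1035+Doxo against 1035, 16 of the 36 (44.4%) were higher, against 0.349% of all 16320 genes, and 0 were lower, against 0.147% of all genes. Without 1035, in Doxo against DMSO, 16 were higher, against 0.784%, and 0 were lower, against 0.545%. At an unadjusted p under 0.05 the edgeR test took 26 members in each comparison, all higher, where all genes had 1110 after 1035 and 2169 without it. DESeq2 called 15 higher after 1035, 10 higher without it, and 0 lower. The median log2 fold change of the members was 0.36 after 1035 and 0.32 without it, where all genes had medians of -0.003 and -0.006. The count of 16 in Doxo against DMSO was 9 without DMSO library 1 and 10 without DMSO library 2, and that in 1035+Doxo against 1035 lay between 11 and 21 when any 1 library was left out. Without DMSO library 1 the calls of AEN, BTG2, XPC, RPS27L, ASCC3, GADD45A and DCP1B were lost in Doxo against DMSO, and without DMSO library 2 those of the same genes except RPS27L. The calls of GADD45A, DCP1B and ASCC3 were also lost without either 1035+Doxo library, those of GADD45A and ASCC3 without Doxo library 1, and that of DCP1B without Doxo library 2. In 1035+Doxo against 1035, RRM2B lost its call without 1035 library 2 or either 1035+Doxo library, XPC without either 1035+Doxo library, FDXR without 1035+Doxo library 2, and RPS27L without either 1035 library. On total counts without TMM, Doxo against DMSO gave 180 genes higher and 52 lower in place of 128 and 89.

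The compound alone moved the members mostly the other way. In 1035 against DMSO 22 were lower (61.1% of the members, against 24.8% of all genes) and 4 were higher (11.1%, against 24.2%), and 10 were not called. The members' median log2 fold change was -0.35 and that of all genes 0.009. The 4 higher members were CDKN1A, BTG2, TP53INP1 and CYFIP2. Without 1035 library 2 the calls of RRM2B, BLOC1S2 and TMEM68 were lost, RRM2B also without DMSO library 2 and BLOC1S2 without DMSO library 1. Fewer cells carrying a transcript and less transcript per cell cannot be told apart in these bulk samples.

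**Figure D1:**
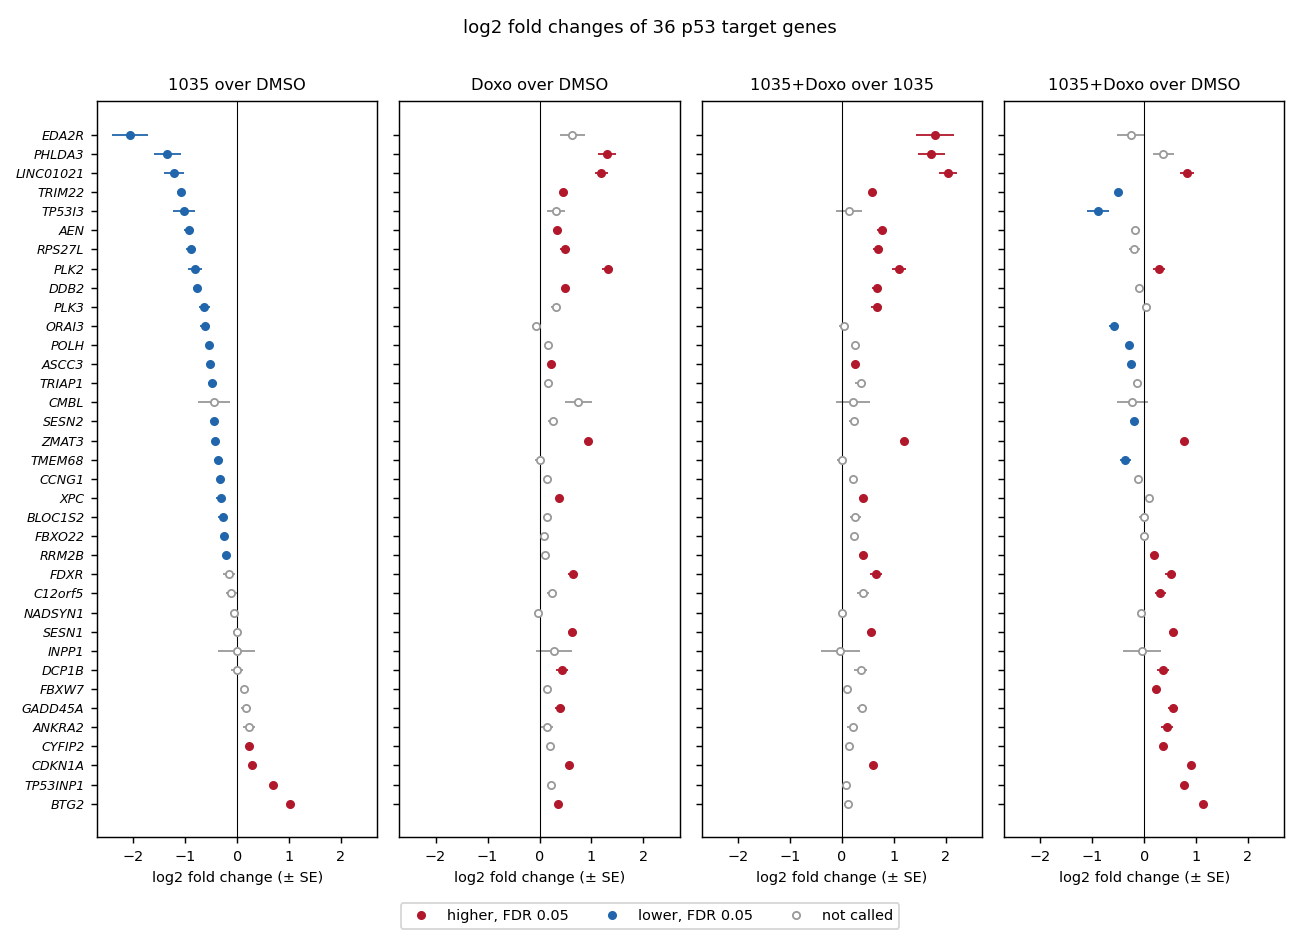
Log2 fold change of each of 36 p53 targets (± SE, from the edgeR fit) in 4 comparisons, with genes ordered by the effect of 1035. Filled points passed a false discovery rate of 0.05: 22 members were lower and 4 higher with 1035, while the 16 called in each doxorubicin comparison were all higher.

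Summed over the 36 genes, levels were 3070 and 3020 CPM in 1035+Doxo, 2480 and 2400 CPM in 1035, 3410 and 3210 CPM in Doxo, and 2680 and 2690 CPM in DMSO. Both combination libraries therefore lay above both 1035 libraries and below both Doxo libraries. Per library, the median log2 ratio of a member to its mean in DMSO was 0.03 and 0.09 in 1035+Doxo, -0.36 and -0.33 in 1035, 0.37 and 0.24 in Doxo, and -0.01 and 0.01 in DMSO. In CPM per kilobase of gene, the level in DMSO ran from 0.380 for INPP1 to 76.0 for CCNG1, with CDKN1A next to the top at 63.4.

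Sorted by both effects, the members fell into these classes. Of all genes, 24.8% were lower and 24.2% higher with 1035. With doxorubicin, 0.349% of all genes were higher after 1035 and 0.784% without it. How many of all genes fall into each joint class was not counted, so no class is called unusual. Lower with 1035 and higher with doxorubicin in both settings were 10 members: ZMAT3, XPC, DDB2, PHLDA3, AEN, PLK2, TRIM22, LINC01021, RPS27L and ASCC3. Lower with 1035 and higher with doxorubicin in the test after 1035 alone were 3: RRM2B, PLK3 and EDA2R. Lower with 1035 and called in neither doxorubicin comparison were 9: SESN2, TP53I3, CCNG1, POLH, FBXO22, TRIAP1, BLOC1S2, ORAI3 and TMEM68. Of the 4 higher with 1035, CDKN1A was also higher with doxorubicin in both settings, BTG2 in Doxo against DMSO, and TP53INP1 and CYFIP2 in neither. Of the 10 not called with 1035, SESN1 and FDXR were higher with doxorubicin in both settings, GADD45A and DCP1B in Doxo against DMSO, and C12orf5, FBXW7, INPP1, ANKRA2, NADSYN1 and CMBL in neither. The comparisons share libraries (DMSO, or 1035), so a class is a description, and a call in 1 setting and not in the other is not a difference between them.

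**Figure D2:**
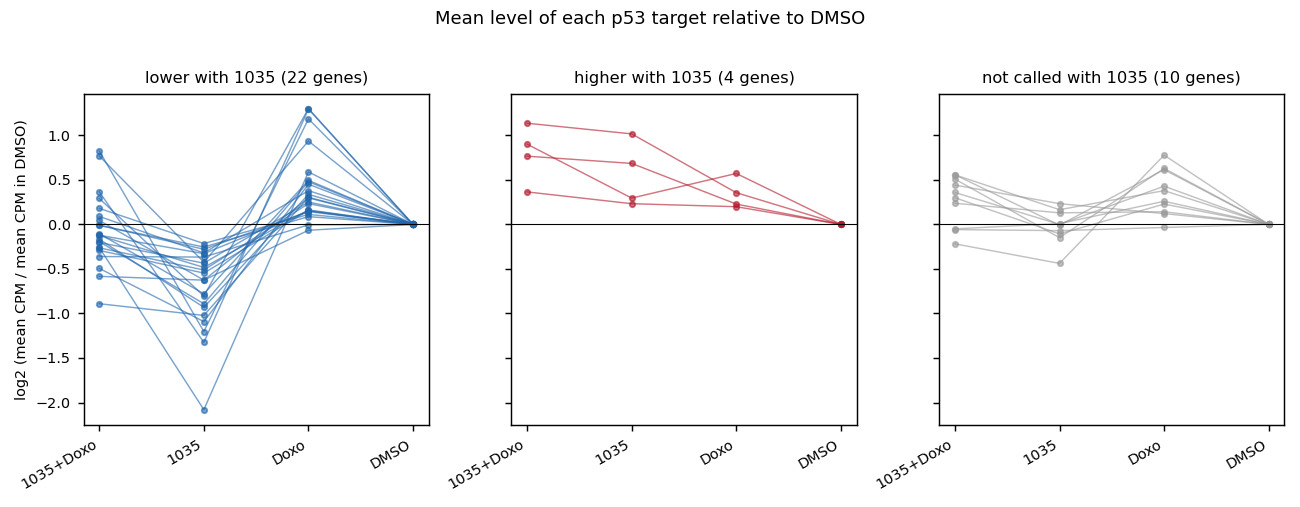
Log2 ratio of the mean CPM of 2 libraries to the mean in DMSO, for each of 36 p53 targets (1 line per gene, drawn over the 4 groups), split by the call in 1035 against DMSO. The 22 genes lower with 1035 reach down to EDA2R at the bottom of the 1035 column, and the 4 genes higher with 1035 lie above DMSO in each treatment.

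The 3 RNA regulators held some of the steepest rises. LINC01021 is a long noncoding RNA, known as PURPL, that is induced by p53 and acts on p53 levels. It had 12.3 and 13.8 CPM in 1035+Doxo, 2.52 and 3.9 CPM in 1035, 17.4 and 16.2 CPM in Doxo, and 7.78 and 7.01 CPM in DMSO. The groups did not overlap: 1035 lay under DMSO, and both doxorubicin groups lay above it. LINC01021 rose 4.10-fold with doxorubicin after 1035 (log2 2.04 ± 0.17, SE; adjusted p = 9.3e-11) and 2.28-fold without it (1.19 ± 0.13; adjusted p = 1.9e-07), while 1035 alone lowered it by 1.22 ± 0.19 on the log2 scale (adjusted p = 8.4e-07). It rests on 35 and 48 reads in the 1035 libraries. The authors' deposited log2 fold changes for LINC01021 were 1.53 after 1035 and 1.0 without it. Neither was called, but both carry the largest adjusted p possible, which can stand for a missing result.

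ZMAT3, a zinc finger protein that binds RNA and steers splicing, moved in the same directions. It had 92.9 and 96 CPM in 1035+Doxo, 42.5 and 40.1 CPM in 1035, 105 and 108 CPM in Doxo, and 52.8 and 57.9 CPM in DMSO. The log2 fold changes were 1.19 ± 0.07 after 1035 (adjusted p = 2.4e-15), 0.94 ± 0.07 without it (adjusted p = 1.5e-12) and -0.42 ± 0.07 for 1035 alone (adjusted p = 8.9e-06). The gain in CPM was 53.2 after 1035 and 51.1 without it. DCP1B, an activator of mRNA decapping, had 16.2 and 15.6 CPM in 1035+Doxo, 12.9 and 11.9 CPM in 1035, 16.6 and 16.7 CPM in Doxo, and 12.4 and 12.4 CPM in DMSO. It passed in Doxo against DMSO (0.43 ± 0.11, adjusted p = 0.0378) but lost that call in at least 8 of the alternatives. With 1035 alone, its log2 fold change was 0.00 with an interval of -0.24 to 0.24 (95%).

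**Figure D3:**
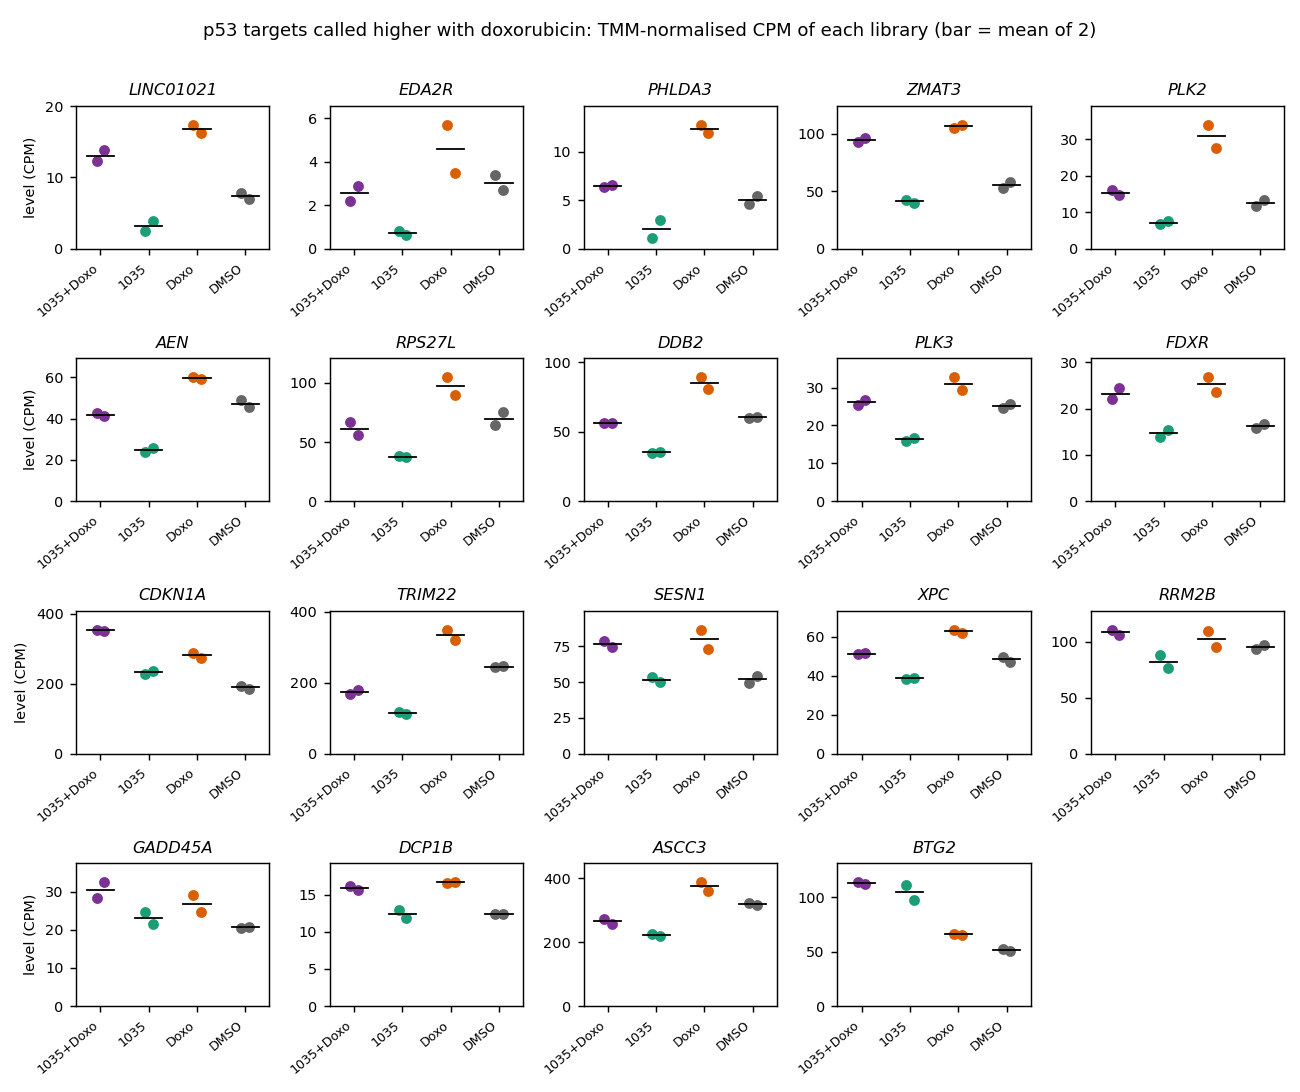
TMM-normalised CPM of each library for the 19 p53 targets called higher with doxorubicin in at least 1 setting (points are libraries, bars the mean of 2, each panel's axis starts at 0). In every panel except that of RRM2B, both doxorubicin groups lie above the group they are set against. LINC01021, PHLDA3, ZMAT3 and PLK2 are among these, and so is BTG2, where libraries with 1035 lie further above those without it.

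Of the 6 members that act on the cell cycle, 3 rose with doxorubicin after 1035 and 4 without it, against 0.349% and 0.784% of all genes. CDKN1A encodes p21, the inhibitor of cyclin-dependent kinases through which p53 stops cells in G1. It had 355 and 352 CPM in 1035+Doxo, 228 and 237 CPM in 1035, 289 and 273 CPM in Doxo, and 193 and 186 CPM in DMSO. The 4 groups were in strict order with no overlap, and the combination was the highest. CDKN1A rose by 0.60 ± 0.06 with doxorubicin after 1035 (adjusted p = 1.4e-09), by 0.57 ± 0.06 without it (adjusted p = 1.7e-08) and by 0.29 ± 0.06 with 1035 alone (adjusted p = 5e-05), and the combination was 1.87-fold above DMSO (adjusted p = 2.1e-16). The response after 1035 minus that without it was 0.03, with a 95% interval of -0.13 to 0.20.

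BTG2, an antiproliferative protein that recruits the mRNA deadenylase, was the member with the largest rise with 1035. It had 114 and 112 CPM in 1035+Doxo, 111 and 97.7 CPM in 1035, 66.6 and 65.0 CPM in Doxo, and 52.6 and 50.2 CPM in DMSO. Libraries with 1035 all lay above those without it. BTG2 was 2.03-fold higher with 1035 (log2 1.02 ± 0.07; adjusted p = 1.6e-15) and 1.28-fold higher with doxorubicin (adjusted p = 0.00353), but after 1035 its log2 fold change of 0.12 ± 0.07 was not called (adjusted p = 0.79).

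PLK2, a polo-like kinase induced by stress, was lower with 1035 (0.570-fold; adjusted p = 9.6e-06) and higher with doxorubicin. It had 16 and 14.7 CPM in 1035+Doxo, 6.77 and 7.56 CPM in 1035, 34.0 and 27.5 CPM in Doxo, and 11.8 and 13.3 CPM in DMSO. It was 2.15-fold higher after 1035 (adjusted p = 2.5e-06) and 2.48-fold without it (adjusted p = 1.1e-10), and in CPM the gain was 8.17 after 1035 and 18.2 without it. The related kinase PLK3 had 25.5 and 26.7 CPM in 1035+Doxo, 16 and 16.7 CPM in 1035, 32.8 and 29.3 CPM in Doxo, and 24.7 and 25.8 CPM in DMSO. PLK3 fell by 0.63 ± 0.10 with 1035 (adjusted p = 1.8e-06), rose 1.59-fold after it (adjusted p = 7.5e-05), and had a log2 fold change of 0.31 ± 0.09 with doxorubicin alone that was not called (adjusted p = 0.0812). Against DMSO, the combination had 0.04 for PLK3, with an interval of -0.15 to 0.24.

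GADD45A, a stress protein that holds cells in G2, had 28.2 and 32.5 CPM in 1035+Doxo, 24.6 and 21.6 CPM in 1035, 29.1 and 24.6 CPM in Doxo, and 20.5 and 20.7 CPM in DMSO. Here Doxo library 2 equalled 1035 library 1, so those groups met. The log2 fold change with doxorubicin was 0.39 ± 0.10 in either setting, past the threshold without 1035 (adjusted p = 0.0348) and short of it after 1035 (adjusted p = 0.0838). CCNG1, a cyclin that brings phosphatase 2A to MDM2 and had the members' highest level per kilobase in DMSO, was lower with 1035 (-0.33 ± 0.06; adjusted p = 2.8e-05) and had uncalled values of 0.21 with doxorubicin after 1035 and 0.15 without it.

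All 5 DNA repair members were lower with 1035, and with doxorubicin 4 rose after 1035 and 3 without it. With 1035, 24.8% of all genes and 61.1% of the 36 members were lower. With doxorubicin, 0.349% of all genes rose after 1035 and 0.784% without it, and 44.4% of the 36 members in each. DDB2 recognises ultraviolet damage for nucleotide excision repair. It had 55.9 and 56.4 CPM in 1035+Doxo, 34.8 and 35.7 CPM in 1035, 89.3 and 80.9 CPM in Doxo, and 60.0 and 60.7 CPM in DMSO. The combination was lower than Doxo (-0.60 ± 0.07; adjusted p = 5.4e-09) and was not called against DMSO (-0.10 ± 0.07). DDB2 rose in both settings, by 0.67 ± 0.08 after 1035 (adjusted p = 2.6e-07) and 0.50 ± 0.07 without it (adjusted p = 2.1e-05). XPC, its partner in damage recognition, had 51.1 and 51.5 CPM in 1035+Doxo, 38.2 and 38.9 CPM in 1035, 63.6 and 61.7 CPM in Doxo, and 49.5 and 47.0 CPM in DMSO. XPC rose 1.33-fold after 1035 (adjusted p = 0.00274) and 1.30-fold without it (adjusted p = 0.00307).

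RRM2B, the p53-induced subunit of ribonucleotide reductase, had 111 and 106 CPM in 1035+Doxo, 87.9 and 76.3 CPM in 1035, 110 and 95.3 CPM in Doxo, and 93.7 and 96.9 CPM in DMSO. Doxo and DMSO overlapped for RRM2B, and the rise after 1035 was 1.32-fold (adjusted p = 0.00137) where that without it was 1.08-fold (adjusted p = 0.521). ASCC3, a helicase of alkylation repair and ribosome rescue, had 273 and 258 CPM in 1035+Doxo, 226 and 219 CPM in 1035, 388 and 360 CPM in Doxo, and 321 and 316 CPM in DMSO. Its rises were small, 1.19-fold after 1035 (adjusted p = 0.0277) and 1.18-fold without it (adjusted p = 0.028), and the rise after 1035 lost its call when any 1 library of 1035, 1035+Doxo or DMSO was left out. POLH, the polymerase that copies past ultraviolet damage, was lower with 1035 (-0.55 ± 0.06; adjusted p = 3.1e-09) and had uncalled values of 0.26 (adjusted p = 0.0613) after 1035 and 0.16 without it. For POLH the value after 1035 was called on total counts and with the libraries of those groups alone.

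Of the 6 members that bear on survival and death, 4 were lower and 2 higher with 1035, against 24.8% and 24.2% of all genes. With doxorubicin 3 rose after 1035 and 2 without it, against 0.349% and 0.784% of all genes. PHLDA3 competes with AKT for membrane lipid and so restrains it. It had 6.38 and 6.53 CPM in 1035+Doxo, 1.08 and 2.93 CPM in 1035, 12.8 and 11.9 CPM in Doxo, and 4.59 and 5.42 CPM in DMSO. The 1035 libraries stood apart from each other, on 15 and 36 reads, but both lay under DMSO. PHLDA3 was 3.29-fold higher in 1035+Doxo than in 1035 (log2 1.72 ± 0.26; adjusted p = 0.00011) and 2.47-fold higher in Doxo than in DMSO (1.30 ± 0.18; adjusted p = 3.8e-05), and 1035 lowered it by 1.35 ± 0.26 (adjusted p = 5.8e-05).

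AEN, a nuclease that p53 induces in dying cells and the gene with a site of 2 mismatches 34 bases before its start, had 42.6 and 41.3 CPM in 1035+Doxo, 23.8 and 25.7 CPM in 1035, 60.1 and 59.0 CPM in Doxo, and 48.8 and 45.4 CPM in DMSO. It rose 1.70-fold after 1035 (adjusted p = 1.8e-07) and 1.26-fold without it (adjusted p = 0.0151), and 1035 lowered it by 0.93 ± 0.09 (adjusted p = 7.2e-12). EDA2R, a receptor of the tumour necrosis factor family, was the member that 1035 lowered most in ratio. It had 2.20 and 2.89 CPM in 1035+Doxo, 0.792 and 0.650 CPM in 1035, 5.71 and 3.47 CPM in Doxo, and 3.38 and 2.71 CPM in DMSO. These rest on 29 and 35, 11 and 8, 102 and 43, and 53 and 41 reads in the same order, and the errors are wide: -2.06 ± 0.35 with 1035 (adjusted p = 5.2e-06), 1.79 ± 0.37 with doxorubicin after 1035 (adjusted p = 0.00768) and 0.63 ± 0.24 without it (adjusted p = 0.205). The call after 1035 was lost without either 1035 library, without 1035+Doxo library 2 and with DESeq2.

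TP53INP1, a stress protein of autophagy and p53 phosphorylation, had 365 and 330 CPM in 1035+Doxo, 350 and 307 CPM in 1035, 238 and 239 CPM in Doxo, and 202 and 206 CPM in DMSO. It was 1.61-fold higher with 1035 (0.69 ± 0.06; adjusted p = 7.5e-12), and its log2 fold change with doxorubicin was 0.08 ± 0.06 after 1035 and 0.22 ± 0.06 without it (adjusted p = 0.0633). The value without 1035 was called in 10 of the alternatives, among them total counts and the block on replicate number. CYFIP2, a part of the WAVE complex of actin, had 334 and 327 CPM in 1035+Doxo, 296 and 308 CPM in 1035, 282 and 309 CPM in Doxo, and 261 and 253 CPM in DMSO. Doxo and 1035 overlapped for CYFIP2, and 1035 raised it 1.18-fold (adjusted p = 0.00098). TRIAP1, a mitochondrial inhibitor of apoptosis, was lower with 1035 (-0.48 ± 0.09; adjusted p = 2.8e-05) and had 0.36 ± 0.10 after 1035 (adjusted p = 0.0871) and 0.17 ± 0.09 without it, neither called.

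Among the 8 metabolic members 2 were lower with 1035 and 0 were higher, against 24.8% and 24.2% of all genes. SESN1 and FDXR rose in both doxorubicin comparisons, against 0.349% of all genes after 1035 and 0.784% without it. SESN1 encodes sestrin 1, which restrains mTORC1 in stressed cells. It had 79.0 and 74.4 CPM in 1035+Doxo, 53.4 and 50.1 CPM in 1035, 86.8 and 72.9 CPM in Doxo, and 49.7 and 54.6 CPM in DMSO. The 1035 and DMSO libraries overlapped, and the log2 fold change of 1035 was -0.01 with an interval of -0.17 to 0.16. SESN1 rose 1.48-fold after 1035 (adjusted p = 2.2e-05) and 1.54-fold without it (adjusted p = 3.7e-06).

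FDXR, the mitochondrial ferredoxin reductase, whose promoter site begins 21 bases before the start, had 22 and 24.4 CPM in 1035+Doxo, 13.9 and 15.4 CPM in 1035, 26.8 and 23.6 CPM in Doxo, and 15.9 and 16.7 CPM in DMSO. It rose 1.58-fold after 1035 (adjusted p = 0.00033) and 1.56-fold without it (adjusted p = 2e-04). TP53I3, a quinone oxidoreductase also known as PIG3, had 3.12 and 3.31 CPM in 1035+Doxo, 2.45 and 3.41 CPM in 1035, 8.23 and 6.46 CPM in Doxo, and 5.61 and 6.28 CPM in DMSO. Every library with 1035 lay under every library without it, TP53I3 fell by 1.03 ± 0.21 with 1035 (adjusted p = 8.5e-05), and the combination was 0.431 times the level in Doxo (adjusted p = 3.8e-06). Its values with doxorubicin were 0.14 ± 0.25 after 1035 and 0.32 ± 0.17 without it, neither called.

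SESN2, the leucine-sensing sestrin, was lower with 1035 (-0.44 ± 0.08; adjusted p = 2.7e-05) and lower in the combination than in Doxo (-0.45 ± 0.08; adjusted p = 1.1e-05). C12orf5, the fructose bisphosphatase TIGAR, had 0.41 ± 0.11 with doxorubicin after 1035 (adjusted p = 0.0885) and 0.24 ± 0.10 without it. NADSYN1, the NAD synthetase, had uncalled log2 fold changes of -0.07 with 1035, 0.01 with doxorubicin after it and -0.03 without it. CMBL, a hydrolase, and INPP1, an inositol phosphatase, rest on 14 to 56 reads per library, and neither was called with 1035 or with doxorubicin. CMBL was lower in the combination than in Doxo (-0.98 ± 0.28; adjusted p = 0.00371).

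TRIM22, a ubiquitin ligase induced by p53 and by interferon, showed the most significant fall with 1035 among the members. It had 169 and 179 CPM in 1035+Doxo, 118 and 112 CPM in 1035, 350 and 320 CPM in Doxo, and 245 and 246 CPM in DMSO. The 4 groups did not overlap, and both groups with 1035 lay under DMSO. TRIM22 fell by 1.09 ± 0.06 with 1035 (adjusted p = 6.7e-18) and rose 1.51-fold with doxorubicin after 1035 (adjusted p = 2.3e-08) and 1.37-fold without it (adjusted p = 3.7e-06). The gain in CPM was 58.8 after 1035 and 89.5 without it. The F-box protein FBXO22 was lower with 1035 (-0.25 ± 0.07; adjusted p = 0.00303), and FBXW7, the F-box protein that targets cyclin E and MYC, was not (0.13 ± 0.06; adjusted p = 0.0986). FBXW7 was 1.17-fold above DMSO in the combination (adjusted p = 0.00256).

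RPS27L, a ribosomal protein close in sequence to RPS27, had 66.6 and 55.6 CPM in 1035+Doxo, 38.2 and 37.2 CPM in 1035, 105 and 89.6 CPM in Doxo, and 64.5 and 75.3 CPM in DMSO. Reads may be shared between these paralogs. RPS27L fell by 0.89 ± 0.10 with 1035 (adjusted p = 6e-07), rose 1.62-fold after it (adjusted p = 0.00132) and 1.4-fold without it (adjusted p = 0.0112). ORAI3, a calcium channel subunit, TMEM68, a membrane acyltransferase, and BLOC1S2, a subunit of a lysosome complex, were lower with 1035 by 0.62, 0.36 and 0.28 on the log2 scale. Their log2 fold changes with doxorubicin lay between -0.06 and 0.26 and were not called. ANKRA2, an ankyrin repeat protein, was not called with 1035 alone (0.23 ± 0.11) and was higher in the combination than in DMSO (0.44 ± 0.11; adjusted p = 0.00082).

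The combination was compared with each group that lacks 1 drug. Against Doxo, 20 members were lower and 5 were higher, against 22% and 21.8% of all genes, with a members' median of -0.28 and an all-gene median of 0.004. The 5 higher were CDKN1A, TP53INP1, BTG2, CYFIP2 and ANKRA2, of which 3 were left without 1035+Doxo library 1. Against DMSO, 15 members were higher and 7 lower, against 24.5% and 24.7% of all genes, and the medians were 0.02 for members and 0.015 for all genes. On total counts 4861 genes were higher and 3186 lower in that comparison, in place of 3999 and 4023. BTG2 (2.21-fold; adjusted p = 4e-17) and CDKN1A (1.87-fold) led those higher than DMSO, followed by LINC01021 (1.76-fold; adjusted p = 6.7e-06), ZMAT3 (1.71-fold) and TP53INP1 (1.70-fold). The 7 lower were TP53I3 (0.540-fold; adjusted p = 0.00046), ORAI3, TRIM22 (0.708-fold; adjusted p = 5e-09), TMEM68, POLH, ASCC3 and SESN2. Against DMSO, the calls of PLK2, RRM2B, C12orf5 and SESN2 were lost without 1035+Doxo library 1 or DMSO library 1, and that of DCP1B without 1035+Doxo library 1. RRM2B also lost its call without library 2 of either group, PLK2 and C12orf5 without 1035+Doxo library 2, and SESN2 without DMSO library 2. In the edgeR test of all libraries PLK2 had an adjusted p of 0.0499. DESeq2 called 11 members higher and 6 lower against DMSO, with PLK2, RRM2B, C12orf5, DCP1B and SESN2 not called. Against Doxo, the calls of ZMAT3, PLK3, ANKRA2, LINC01021, CYFIP2, CMBL, EDA2R and TRIAP1 were lost without 1035+Doxo library 1. Of these, PLK3, LINC01021, CYFIP2, EDA2R and TRIAP1 also lost the call without Doxo library 1, and ZMAT3, ANKRA2 and CMBL without Doxo library 2.

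Whether 1035 changed the response to doxorubicin was asked with the interaction, the difference of the 2 log2 fold changes. None of the 36 members was called in the edgeR test, 0 higher against 0.0184% of all genes and 0 lower against 0.0%, and DESeq2 also called 0. At an unadjusted p under 0.05 there were 7 members, where all genes had 786, and the smallest adjusted p of a member was 0.569. The values were positive in 24 members and negative in 12. LINC01021 had 0.85 (interval 0.38 to 1.31) and AEN 0.43 (0.19 to 0.67), both with adjusted p = 0.569. EDA2R had 1.17 ± 0.45 (SE), PLK3 0.37 (0.09 to 0.65), RRM2B 0.29 (0.08 to 0.49) and ZMAT3 0.25 (0.05 to 0.45), and BTG2 had -0.24 (-0.43 to -0.04), each with an adjusted p of 0.952. Without Doxo library 1, LINC01021 (0.90; adjusted p = 0.0394) and RRM2B (0.40; adjusted p = 0.018) were called in the interaction, so 1 library decides those calls. A p that misses the threshold does not show equal responses. Across all genes the interaction called 3, NFKBIA, TNFAIP3 and MIR146A, none a member.

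**Figure D4:**
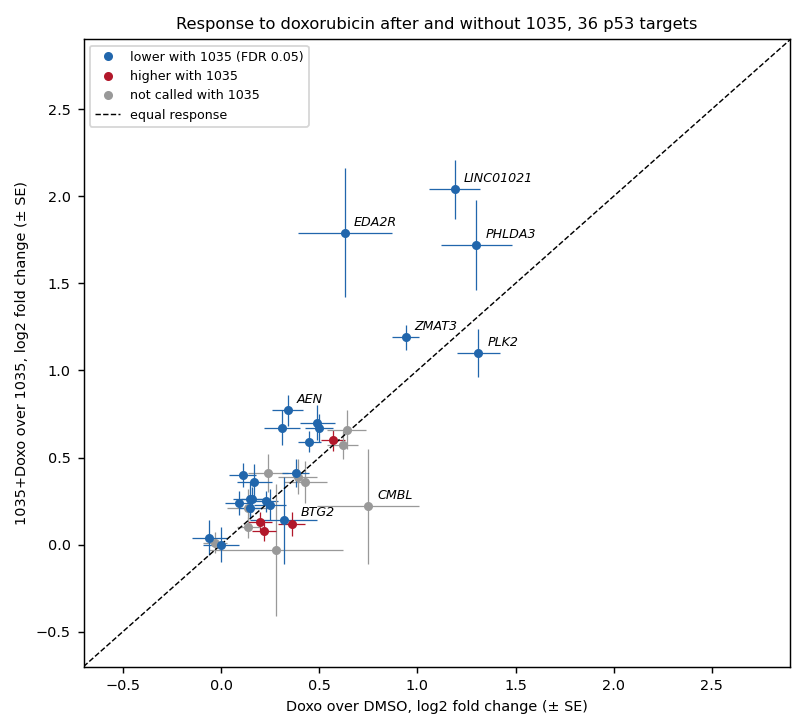
Log2 fold change with doxorubicin after 1035 (1035+Doxo over 1035, vertical) and without 1035 (Doxo over DMSO, horizontal) for 36 p53 targets, each ± SE, coloured by the call in 1035 against DMSO. The broken line marks equal responses: 24 genes lie above it, among them LINC01021 and EDA2R, and 12 below it, among them BTG2 and PLK2.

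The 2 doxorubicin comparisons share no library, so their overlap can be described. Of the 16 members higher after 1035 and the 16 higher without it, 13 were in both (81.2% of each list). Of all genes, 32 were in both, which is 56.1% of the 57 higher after 1035 and 25.0% of the 128 higher without it. Over the 36 members the 2 log2 fold changes had a Pearson r of 0.82 and a Spearman rho of 0.74. Over all 16320 genes the Pearson r was -0.45, with library 2 of 1035 and library 2 of Doxo deviating from their groups together (r = 0.42), and members share libraries and depth, so no p is given. For the 13 members in both lists the interaction ran from -0.21 (PLK2) to 0.85 (LINC01021) with a median of 0.15. In CPM, the gain with doxorubicin after 1035 and without it was 9.85 and 9.43 for LINC01021, 8.5 and 8.9 for FDXR, 24.9 and 27.7 for SESN1, 121 and 91.8 for CDKN1A, and 26.1 and 7.21 for RRM2B. Ratios and gains in CPM therefore do not rank these genes alike.

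All 5 members with a promoter site of up to 3 mismatches were higher with doxorubicin without 1035, and 4 of them, LINC01021, AEN, FDXR and RPS27L, after it too, against 16 of all 36 members in each comparison. The 36 hold these 5, and only 27 of the 36 had a promoter to search, so the 36 are not a group without a site. Without DMSO library 1, AEN, RPS27L and DCP1B lost the call in Doxo against DMSO, which leaves 2 of the 5, and without DMSO library 2 AEN and DCP1B did. DCP1B lost it in at least 8 alternatives. After 1035, RPS27L lost its call without either 1035 library and FDXR without 1035+Doxo library 2. The limit of 3 mismatches was set after hits had been seen, so these counts are a description. The letters printed above go with log2 fold changes after 1035 of 2.04 for LINC01021, 0.77 for AEN, 0.36 (not called) for DCP1B, 0.66 for FDXR and 0.70 for RPS27L. Members without such a site in this window also rose after 1035, with log2 fold changes of 1.19 for ZMAT3 and 1.10 for PLK2.

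Genes of the p53 circuit itself were read beside the targets. Of 22 listed, 19 were tested. MDM2, the ubiquitin ligase of the feedback loop, had 2020 and 1920 CPM in 1035+Doxo, 1720 and 1660 CPM in 1035, 2510 and 2340 CPM in Doxo, and 2080 and 2080 CPM in DMSO. It fell by 0.30 ± 0.06 with 1035 (adjusted p = 3.1e-05) and had 0.22 ± 0.06 with doxorubicin both after 1035 (adjusted p = 0.081) and without it (adjusted p = 0.0389). With 1035, 5 of the 19 were higher and 11 lower, against 24.2% and 24.8% of all genes. With doxorubicin, 0 were called after 1035, and without it 4 were higher (MDM2, HIPK2, EP300 and CREBBP), against 0.784% of all genes, and 0 lower. The kinase HIPK2, which phosphorylates p53, averaged 66.7 ± 9.11 CPM in Doxo and 51.8 ± 4.38 CPM in DMSO, the acetyltransferase EP300 106 ± 12.6 CPM in Doxo and 82.1 ± 7.05 CPM in DMSO, and its relative CREBBP 124 ± 10.4 CPM in Doxo and 96.5 ± 3.34 CPM in DMSO (SD, n = 2).

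A list of p53 targets of cell death, which crosses the BCL2 family, was read in the same way. Of 16 listed, 13 were tested, of which 6 were higher and 4 lower with 1035, against 24.2% and 24.8% of all genes. With doxorubicin 3 were higher after 1035, against 0.349% of all genes, and 4 without it, against 0.784%. BBC3, which encodes the BH3 protein PUMA, averaged 19.1 ± 0.435 CPM in 1035+Doxo, 11.4 ± 0.0466 CPM in 1035, 19.1 ± 2.11 CPM in Doxo and 10.5 ± 0.0948 CPM in DMSO (SD, n = 2), and its log2 fold change with 1035 was 0.13 ± 0.13, not called. BBC3 rose with doxorubicin by 0.75 ± 0.12 after 1035 (edgeR adjusted p = 0.00013) and by 0.88 ± 0.11 without it (adjusted p = 3.7e-06). BAX, the pore former of mitochondria, and FAS, a death receptor, were lower with 1035 (-0.54 and -0.97) and rose with doxorubicin after it (0.53 and 1.38) and without it (0.34 and 1.16). The death receptor TNFRSF10B averaged 22.9 CPM in 1035+Doxo, 17.2 CPM in 1035, 12.6 CPM in Doxo and 6.78 CPM in DMSO. It was higher with 1035 (1.34) and with doxorubicin alone, and was not called after 1035.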

How the data were processed

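Total RNA of SupB15 cells was sequenced in 8 libraries, 2 for each of 4 treatments. Per the labels' protocols, RNA came from a Versagene kit and libraries from a stranded TruSeq kit after Ribo-Zero Gold depletion of ribosomal RNA. The submitters' processing notes name the build hg19 and the tools Novoalign 2.08.01 and DESeq2 1.4.5. Not given in the sources used here are the read counter, the annotation and whether strand was used, so values of overlapping, antisense and paralogous genes are uncertain.

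The authors deposited 4 tables, 1 for each of 4 comparisons. In each, per the file headers, there are raw counts per gene for 4 libraries. The deposited FPKM values, which the authors scaled by gene length and library reads, were used only to recover gene lengths, which spread by at most 0.298% between values of a gene. The deposited log2 fold changes and the deposited adjusted p-values are the authors' own and were counted only as an alternative. Tables were joined on the gene identifier; the 132880 counts found in 2 tables agreed exactly, and 16608 of 17849 genes had counts in all 8 libraries.

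In R 4.3.3, edgeR 4.0.16 was used: filterByExpr took out 288 genes and kept 16320, TMM scaled the libraries, and 1 robust quasi-likelihood fit covered the 8 libraries with a mean for each group (4 residual degrees of freedom). P-values of its two-sided F-test were adjusted over the 16320 genes after Benjamini and Hochberg at a false discovery rate of 0.05, and a gene past it is named higher or lower. The interaction is the log2 fold change with doxorubicin after 1035 minus that without 1035. The test was also run on simulated counts with known changes, in libraries drawn independently of each other. Its outcome is not given here, and deviations shared between groups were not simulated. The design text calls both samples of each treatment independent. P-values rest on a variance per gene pooled over the 4 treatments, not on both samples of a single treatment alone. That variance was moderated using all 16320 tested genes, with a median of 35.6 prior degrees of freedom beside the 4 residual ones. Small p-values therefore depend on this prior as well as on the libraries.

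The 38 genes, the role groups and the gene lists were chosen with earlier results of these data known. Each library's values are given for genes called in a doxorubicin comparison and for up to 5 genes called in each direction of 1035 against DMSO, ranked by the size of the log2 fold change. The other genes are described by ranges and counts. Promoter sequence is RefSeq's on GRCh38.p14, and no coordinate was carried between it and hg19. The form of the p53 site search and its limit on mismatches were chosen after hits had been seen. An exact search for a single half-site and one for a full site with a spacer had been looked at before it. Alternatives were other scalings, count filters, DESeq2 1.42.0, the replicate number as a block, fits on fewer libraries and the authors' deposited values.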

Additional observations from a re-analysis of the deposited data

How the results depend on the processing

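For single members, 3668 test results under the alternatives kept direction and side of the threshold, 117 kept direction and lost the call, 64 kept direction and gained one, and 0 turned a called direction round. These counts leave out values to which DESeq2 gave no adjusted p, and deposited values whose adjusted p was at its ceiling. Calls not kept in those are not among the 117. Of 1860 uncalled values, 108 changed sign. On total counts, 111 group levels of members moved by less than the spread between libraries and 33 by more, by at most 0.048 (log2). In 1035+Doxo against DMSO the median of all genes was 0.093 (log2) on total counts and 0.015 with TMM.

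In Doxo against DMSO, 128 genes and 16 members were higher and 89 genes lower. Genes higher numbered 76 with the libraries of these groups alone, 74 on the genes of their own table, 58 with DESeq2 and 23 in the authors' deposited table, and genes lower 58, 56, 94 and 57. Total counts gave 52 genes lower. Members higher numbered 10 with DESeq2 and 8 in the authors' deposited table. The authors' deposited adjusted p of LINC01021, PHLDA3, PLK2 and FDXR was at its ceiling in both doxorubicin comparisons. In Doxo against DMSO, so was that of AEN, BTG2, DCP1B, GADD45A and XPC. A value at the ceiling can stand for a missing result, so it is not read as a failed test. Counts from the authors' deposited table take such genes as not called. Leaving out 1 library gave 28 (without DMSO library 1) to 634 (without Doxo library 1) genes higher, 5 to 546 lower (the same libraries), and 9 to 17 members higher.

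In 1035+Doxo against 1035, 57 genes and 16 members were higher and 24 genes lower. Genes higher numbered 93 with these groups alone, 94 on their own table and 22 in the authors' deposited table, genes lower 58, 57 and 15, and members higher 9 in the authors' deposited table. With these groups alone 20 members were higher, with POLH, GADD45A, C12orf5 and TRIAP1 added. Leaving out 1 library gave 29 (without 1035+Doxo library 2) to 87 (without either Doxo library) genes higher and 1 to 56 lower (the same libraries). In 1035+Doxo against Doxo the authors' deposited table held 2111 genes and 3 members higher and 2325 genes and 13 members lower, and leaving out 1 library gave 3 (without 1035+Doxo library 1) to 6 (without Doxo library 1) members higher.

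In the interaction, leaving out 1 library gave 1 (without DMSO library 2) to 64 (without Doxo library 1) genes higher, 0 to 175 lower and 0 to 2 members higher. Without library 2 of both 1035 and Doxo, 2 genes were lower in it, 20 members were higher in Doxo against DMSO and 18 in 1035+Doxo against 1035. The cause of these shifts was not tested.

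Same-numbered libraries deviated together in 1035 and Doxo (r = 0.42) but not in the other pairs of groups. There r was -0.14 between 1035+Doxo and 1035, -0.13 between 1035+Doxo and Doxo, and -0.04 to 0.04 in the rest. With the replicate block, 12 genes were lower in the interaction, 177 genes were higher in Doxo against DMSO and 17 members were, and PLK2 lost its call in 1035+Doxo against DMSO. With the numbers of 1035+Doxo crossed in the block, an alternative chosen after seeing the data, 199 genes were higher in Doxo against DMSO, 45 lower in 1035+Doxo against 1035, and 8 higher and 68 lower in the interaction.

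Summed over the libraries, INPP1, CMBL, EDA2R, TP53I3, PHLDA3 and LINC01021 held the fewest reads of the members, with 8 to 311 per library.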
